A study of Mus musculus with 8 samples.

Results

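The comparison described here set 2 whole melanomas from SA mice against 2 whole melanomas from WT mice, all taken 38 days after tamoxifen. These are 4 of the 8 samples of the series, chosen by their titles, and every probe with a gene symbol was considered. The WT mice carried Ifnar1+/+, the normal gene of the first chain of the type I interferon receptor. The SA mice carried Ifnar1SA, whose receptor chain is known to resist degradation. Mice of both groups were C57BL/6 and also carried BrafCA and Tyr::CreER, so that 4-hydroxytamoxifen painted on the skin of newborns started mutant Braf in melanocytes, the cells in which the tyrosinase promoter drives the Cre. The remaining 4 samples were SA tumours, 2 of day 20 and 2 of day 60. They entered the statistical model to estimate the spread, and their values are given where they help to place a day 38 value. Nothing in the labels says that paired samples of 1 group are from different mice, and the p-values thus reflect no more than the spread among the arrays at hand. The genotype field of the labels was followed, because the treatment text names Ifnar1-/- where that field gives Ifnar1SA.

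Type I interferons bind a receptor built of the Ifnar1 and Ifnar2 chains, and signalling in which Jak1, Tyk2, Stat2 and Irf9 take part switches on a broad set of antiviral genes. Ligand binding also marks Ifnar1 for ubiquitination and degradation, which ends the signal. Activated Braf can drive melanocytes into senescence, a lasting arrest held by cell cycle inhibitors such as the products of Cdkn2a and Cdkn2b and accompanied by secretion of cytokines and proteases. A whole melanoma also holds the skin, fat, muscle, nerve, vessels and blood cells taken with it.

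Each array gave 1 intensity per probe, and all values below are log2 intensities after background correction, so that a difference of 1 is 2-fold. A difference is SA minus WT, its standard error comes from a linear model over all 8 arrays, and a gene is said to have risen or fallen where its Benjamini-Hochberg adjusted p from limma was under 0.05. Of 25697 probes, 23978 carried a gene symbol, and after a filter on the mean level over the 8 arrays 11661 measurements were tested, 10771 of them with a gene name. The pair of WT arrays had a correlation across genes of 0.988, with 160 genes more than 2-fold apart, against 0.971 and 591 genes for the pair of SA arrays of day 38. Replicate 2 of SA stood farther from WT than replicate 1 did. It was more than 2-fold from WT replicates 1 and 2 at 1203 and 1328 genes, against 584 and 602 genes for SA replicate 1.

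Transcripts of the sex chromosomes differed between the groups. Xist, the RNA that coats the inactive X chromosome of females, read 6.94 and 7.05 in WT and 9.69 and 9.2 in SA, a difference of 2.45 (SE 0.28, limma adjusted p = 0.0912). Of 4 measured Y-linked genes, Eif2s3y and Kdm5d fell, Uty differed by −0.68 and Gm20747 by −0.36, with the SA arrays below the WT arrays for each. Among X-linked genes known to escape silencing, Eif2s3x (0.68), Car5b (0.65), Kdm6a (0.51) and Pbdc1 (0.22) were higher in both SA arrays than in either WT array. Kdm5c (−0.2) overlapped between the groups and Ddx3x (−0.14) lay lower in SA. On the 4 SA arrays of days 20 and 60 Eif2s3y read between 11.37 and 11.8 and Xist between 6.84 and 7.56, both nearer to WT than to SA of day 38. Car5b, by contrast, read between 9.04 and 9.48 on those arrays, above both WT arrays, and Kdm6a reached 12.44 on 1 of them. Sex and genotype therefore cannot be told apart at day 38.

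Across the genome the difference between SA and WT was broad in its spread and narrow in what passed the test. limma called 7 of 11661 measurements (0.06%), of which 4 rose (0.0343%) and 3 fell (0.0257%), and 1645 (14.1%) had an unadjusted p under 0.05, 727 of them higher in SA (6.23%) and 918 lower (7.87%). The mean was higher in SA for 5476 (47%). Both SA arrays lay above both WT arrays for 2806 measurements (24.1%) and below them for 3498 (30%). Large differences leaned the other way, since 449 of the former were at least 2-fold higher (3.85%) against 279 of the latter at least 2-fold lower (2.39%). At 4-fold or more the counts were 132 and 28, and at 8-fold or more 29 and 4. Part of this lean can follow from the filter, because most arrays behind its mean are SA. Genes below the filter level in both WT arrays alone numbered 197, 195 of them higher in SA. Those below it in both SA arrays of day 38 alone numbered 120. The part of the filter in these counts was not tested. The genes of 60 lists of tissue markers and pathways, which cover 839 tested genes, made up 135 of the 449 and 35 of the 279. Muscle lists held 33 of the 449, fat lists 28 and interferon lists 14, while 314 were in no list. Over all genes tested the median difference was −0.02.

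**Figure D1:**
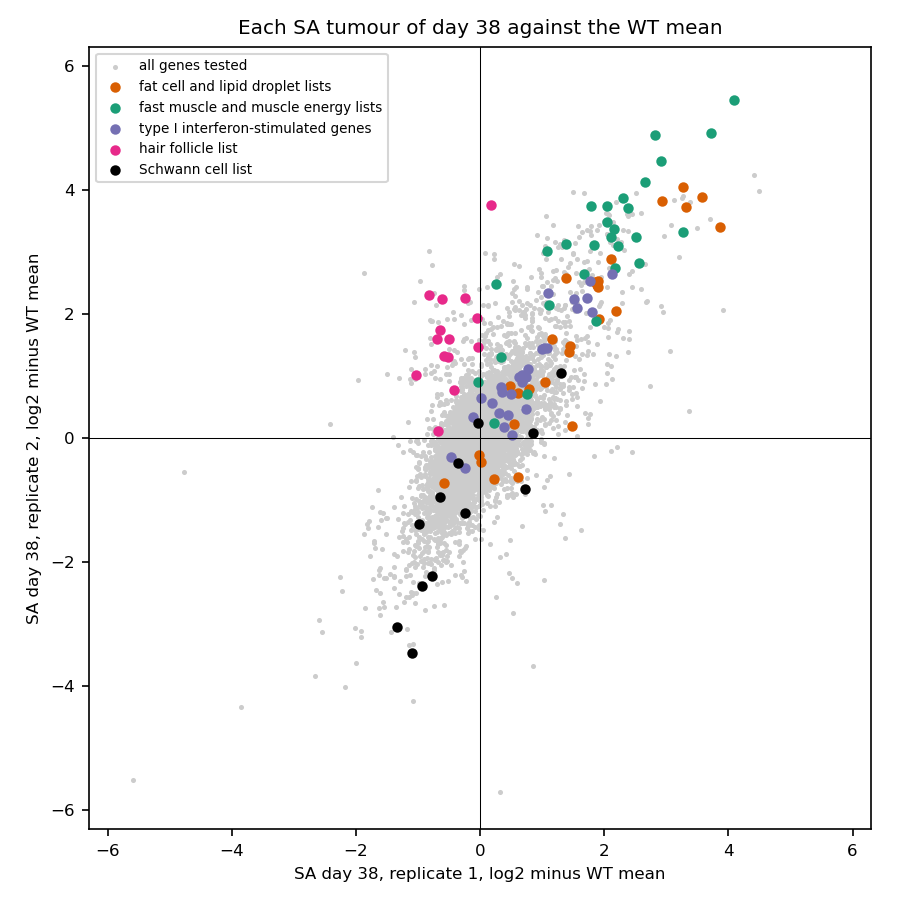
Each point is 1 gene, with its log2 level in SA replicate 1 minus the WT mean on the x axis and the same for SA replicate 2 on the y axis. Fat and muscle genes lie far to the upper right in both SA tumours, interferon-stimulated genes lie less far in the same direction, and hair follicle genes spread along the axis of replicate 2.

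The 4 rises were genes of unlike function. Cd1d1 encodes a class I-like molecule that shows lipid antigens to natural killer T cells. It read 9.5 and 9.85 in WT and 12.07 and 12.31 in SA, a rise of 2.52 (SE 0.18, adjusted p = 0.0193) or 5.73-fold. Pyy, which encodes the gut peptide hormone YY, read 8.29 and 8.81 in WT and 13.05 and 12.53 in SA, an 18.8-fold rise of 4.24 (SE 0.37, adjusted p = 0.0405). In the SA arrays of days 20 and 60 Pyy averaged 9.21 and 11.36, so that its day 38 level was the highest of the 4 groups. Smoc1, which encodes a secreted calcium-binding protein known to oppose BMP signals, read 6.8 and 7.31 and 10.31 and 10.93, a rise of 3.56 (SE 0.32, adjusted p = 0.0405). Adig, a small protein of developing fat cells, read 8.11 and 8.37 and 11.17 and 12.05, a rise of 3.38 (SE 0.32, adjusted p = 0.0444). The groups stood clear of each other at all 4, with the lower SA array above the higher WT array by 2.22 for Cd1d1, 2.81 for Adig, 3.0 for Smoc1 and 3.72 for Pyy.

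The 3 falls were the Y-linked translation factor gene Eif2s3y, the Y-linked histone demethylase gene Kdm5d and a probe with no gene symbol. Eif2s3y read 11.76 and 11.64 in WT and 6.11 and 6.2 in SA (difference −5.55, SE 0.15, adjusted p = 8.32e-05). Kdm5d read 9.3 and 9.0 and 6.6 and 6.02 (difference −2.84, SE 0.26, adjusted p = 0.0405). The probe without a symbol read 12.59 and 13.08 and 8.98 and 8.51 (difference −4.09, SE 0.28, adjusted p = 0.0193). It read between 12.71 and 13.61 in the SA arrays of days 20 and 60, so it followed the Y-linked genes in all 8 arrays. The number of calls depended on the pooled spread. Leaving out any 1 array of WT, of SA at day 38 or of SA at day 60 left 1 call, Eif2s3y, and leaving out either array of day 20, which alters only the shared spread, gave 42. The fit without genes of the X and Y chromosomes called 2, Cd1d1 and the probe without a symbol.

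Beyond these, of the 12 autosomal genes at least 2-fold higher in SA with the smallest p, 6 belong to the lists of fat cells, lipid droplets and fat synthesis. They are Aqp7, Plin4, Fitm2, Pparg, Lep and Scd1. None of the 12 passed, nor did any other gene named below, and the limma adjusted p of those chosen by rule ran from 0.0703 to 0.862. Members named as exceptions to a list were chosen after their values were seen. Aqp7, the glycerol channel of fat cells, read 6.44 and 6.75 in WT and 8.47 and 9.06 in SA (difference 2.17, SE 0.26, adjusted p = 0.11). Plin4, a coat protein of lipid droplets, read 10.18 and 10.94 and 13.89 and 14.29 (difference 3.53, SE 0.44). Fitm2, an endoplasmic reticulum protein needed to form droplets, read 10.57 and 10.33 and 11.61 and 12.04 (difference 1.38). Gpat3, which starts triglyceride assembly but is in none of these lists, differed by 1.44 (SE 0.21). Pparg, the master regulator of fat cell formation, differed by 2.17 (SE 0.32). Lep, the gene of the fat hormone leptin, read 9.14 and 10.38 and 13.04 and 13.81 (difference 3.66, SE 0.55), with the WT arrays further apart than the SA arrays.

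The same 12 included genes outside lipid storage. Ppp1r3c, which brings protein phosphatase 1 to glycogen, read 11.49 and 12.03 in WT and 13.9 and 14.88 in SA (difference 2.63, SE 0.37). Ppp1r1a, an inhibitor of the same phosphatase, read 8.03 and 8.21 and 11.39 and 12.02 (difference 3.59, SE 0.49). Both encode regulators of protein phosphatase 1, and the groups were 1.87 and 3.18 apart at their nearest arrays. The C-type lectin genes Cd209a and Cd209e, of dendritic cells and related myeloid cells, were higher by 1.2 (SE 0.17) and 1.5 (SE 0.22). Cd209a read 7.21 and 7.0 in WT and 8.4 and 8.21 in SA, close to the filter. Cytl1, a secreted protein of cartilage, was higher by 2.08 (SE 0.3), from 6.21 and 6.64 to 8.38 and 8.62. Aqp7, Cd209a, Cd209e and Cytl1 lay below the filter level of 7.24 in both WT arrays and entered through SA arrays. The 12 were completed by Scd1 of the fat synthesis list, the desaturase that makes monounsaturated fatty acids, at 13.91 and 14.15 in WT and 15.57 and 15.51 in SA (difference 1.51, SE 0.22).

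The 12 autosomal genes at least 2-fold lower in SA with the smallest p included channels, proteases and their inhibitors, and regulators. Hcn2, a pacemaker ion channel, read 10.08 and 10.28 in WT and 8.46 and 7.9 in SA (difference −2.0, SE 0.21, adjusted p = 0.0703), and the potassium channel gene Kcna6 read 8.77 and 8.47 and 7.47 and 7.27 (difference −1.25). Serpinb6c, an intracellular protease inhibitor, read 11.47 and 11.86 and 10.04 and 9.46 (difference −1.91, SE 0.24). Mmp13, a collagenase, read 13.05 and 12.98 and 11.38 and 10.9 (difference −1.88, SE 0.23), with a difference of −1.39 at a second of its probes and 0.19 at another, whose means were 7.39 and 7.59. Clec4d, a lectin receptor of myeloid cells, differed by −1.71 (SE 0.23), and the cystatin family gene Cstdc4 by −1.25 (SE 0.17). Aldh1l2, a mitochondrial enzyme of folate metabolism, read 11.57 and 11.84 and 10.03 and 9.25 (difference −2.07, SE 0.3). Dlk1, an imprinted gene whose product restrains fat cell formation, read 11.26 and 9.84 and 7.96 and 7.62 (difference −2.76, SE 0.44). The remaining members were Insyn2b (−2.3), Nicn1 (−1.16), Micall2 (−1.29), which encodes a junction protein, and the clock repressor gene Nr1d1 (−1.54). In these 12 genes, as the rule required, the SA arrays did not overlap the WT arrays.

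**Figure D2:**
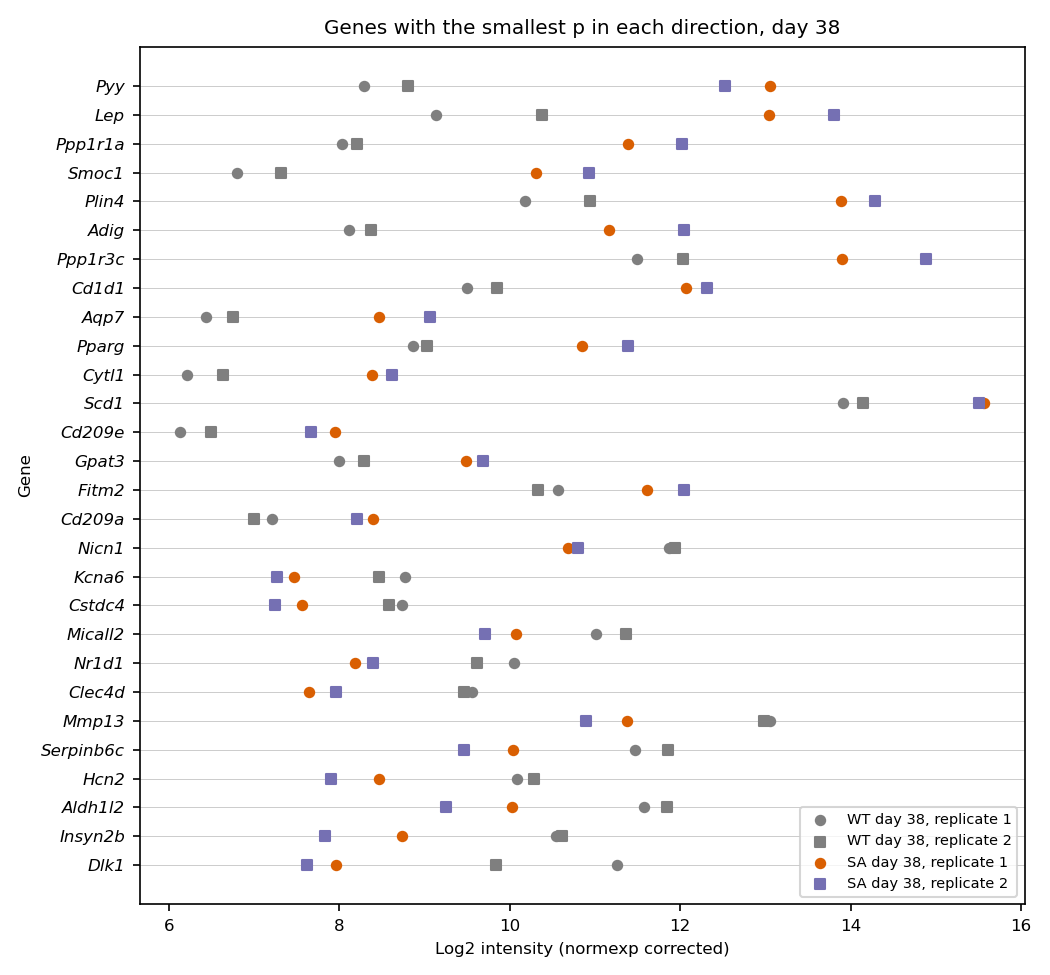
Log2 intensity (x axis) of the called autosomal genes and of the 12 further higher and 12 further lower genes with the smallest p, 1 row per gene and 1 point per array of day 38. The SA points lie to the right of the WT points in the upper rows and to the left in the lower rows, and Pyy spans the widest gap, from 8.29 and 8.81 in WT to 12.53 and 13.05 in SA.

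Tissue programmes were described by how many measured members of a list read higher or lower and by the list's median difference, beside the all-gene median of −0.02. Counts without overlap stand beside 24.1% of all genes above and 30% below WT. Counts at least 2-fold higher or lower stand beside 3.85% and 2.39%. A list's members entered through the filter on the mean over 8 arrays, so a gene that is low in all groups is missing from its count. Of the 8 arrays 6 are SA, and a gene that is dim in WT can enter through them. Over all genes 197 were below the filter level of 7.24 in both WT arrays alone, 195 of them higher in SA, against 120 below it in both SA arrays of day 38 alone. These 197 include 4 of 17 lipid droplet genes (Plin1, Plin5, Fitm1 and Aqp7), 2 of 13 muscle excitation genes (Jph1 and Srl) and Hbb-b2 of 6 red blood cell genes, and their counts as higher follow in part from the filter. In bulk tumours, fewer cells of a type and less RNA per cell cannot be told apart.

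**Figure D3:**
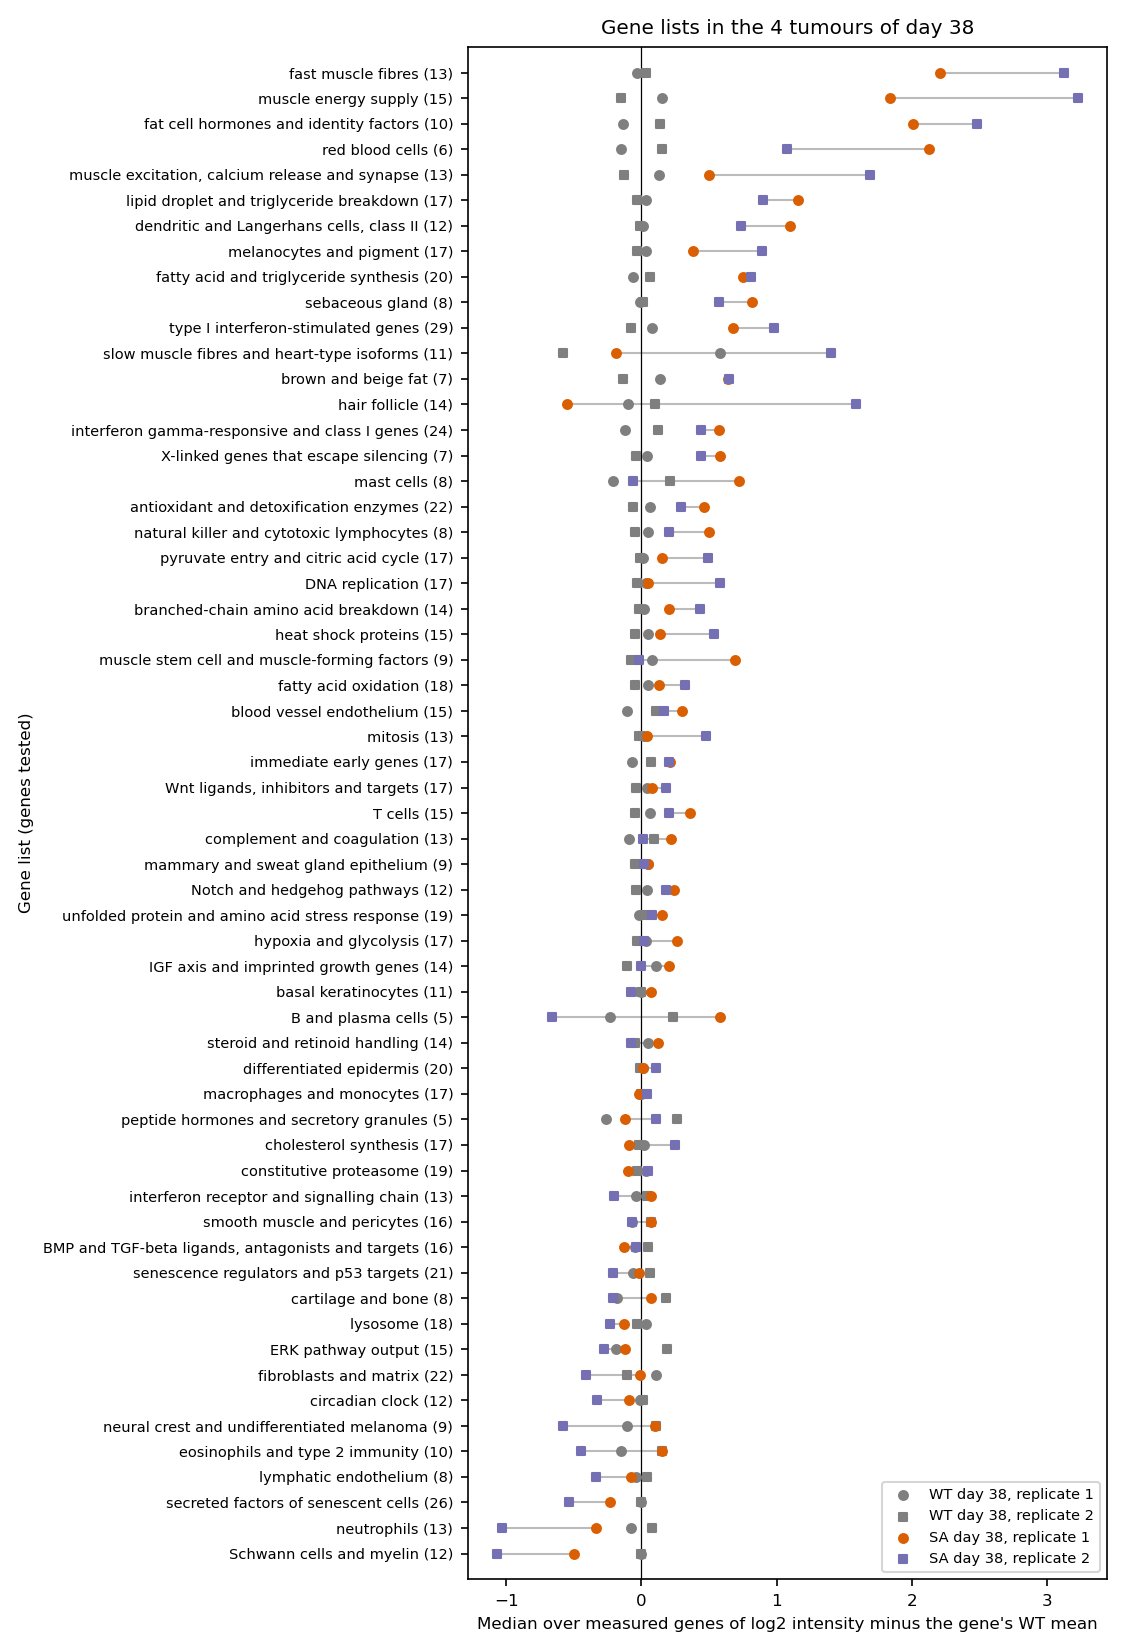
Median over the measured genes of each list (count in brackets) of the log2 level minus the gene's WT mean, for the 4 arrays of day 38 and for all lists but the Y-linked one. The fast muscle and fat hormone lists have high median differences (2.68 and 2.19), the Schwann cell and neutrophil lists the lowest shown (−0.76 and −0.63), and the hair follicle list has its SA arrays on opposite sides of WT.

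Fat cell genes were higher in both SA tumours. Of 17 listed genes for fat hormones and identity factors, 10 were measured, 9 of them were higher in SA (47% of all genes) and the same 9 lay above both WT arrays (24.1% of all genes did), with a median difference of 2.19. The exception was the transcription factor gene Klf15 (−0.22). Adipoq, the gene of the hormone adiponectin, read 9.8 and 11.05 in WT and 14.0 and 14.31 in SA (difference 3.73, SE 0.69, adjusted p = 0.205). Sncg, a synuclein found in fat cells and nerves, read 8.46 and 8.5 and 10.59 and 11.36 (difference 2.49). Adig, described above, was the single called member. The summed intensity of the list was 3663 and 5976 in the WT arrays and 33800 and 48480 in the SA arrays. The list's array medians against the WT mean were 2.01 and 2.48 in SA at day 38, 1.53 and 0.99 at day 20 and 1.10 and 0.92 at day 60, so the SA tumours of the other days stood above these WT tumours too. These 6 arrays share the WT reference. Probes for 5 listed genes (Retn, Rbp4, Nnat, Arxes1 and Lgals12) lay below the filter.

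Genes for making and storing fat followed with smaller differences. Of 17 measured genes of lipid droplets and triglyceride breakdown, 13 were higher, 12 without overlap and 8 at least 2-fold (3.85% of all genes), with a median of 0.97. None was called, and 9 had an unadjusted p under 0.05 in that direction (6.23% of all genes). Cidec, which fuses droplets into large ones, read 8.31 and 9.5 in WT and 12.77 and 12.3 in SA (difference 3.63, SE 0.77), and Plin1, the coat protein that guards stored fat, read 5.86 and 6.87 and 8.22 and 8.87 (difference 2.18). The probes of Fabp4 and Cd36, which carry and take up fatty acids, lay below the filter. Of 20 measured genes of fatty acid and triglyceride synthesis, 19 were higher, 16 of them without overlap, with a median of 0.86. Thrsp, a nuclear regulator of fat synthesis, read 7.67 and 7.96 and 10.89 and 11.25 (difference 3.25, SE 0.67), Mlxipl, a glucose-sensing transcription factor, 7.81 and 7.65 and 9.41 and 10.56 (2.25), and Lpin1, a phosphatidate phosphatase, 8.44 and 8.57 and 10.2 and 10.12 (1.65). Cholesterol synthesis, the other branch of lipid synthesis, had a median of 0.01 over 17 genes, of which 2 lay above and 2 below WT without overlap. Of 7 measured genes of brown and beige fat, 5 were higher (median 0.64, or 0.30 without the filter), led by the respiratory chain genes Cox8b (2.81) and Cox7a1 (2.18), which muscle also expresses. Ucp1, the defining gene of brown fat, read 6.20 and 6.59 in WT and 6.43 and 7.01 in SA, below the filter of 7.24.

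Skeletal muscle genes showed the highest median differences of the 60 lists, and within muscle the lists were unequal. All 13 measured genes of fast fibres were higher in SA, 12 without overlap and 11 at least 2-fold, with a median of 2.68. Actn3, the actinin of fast fibres, read 8.38 and 9.93 in WT and 13.24 and 14.59 in SA (difference 4.76, SE 1.34, adjusted p = 0.252), and Myh4, a fast myosin, read 7.14 and 9.6 and 12.09 and 13.28 (difference 4.31, SE 1.43). The WT arrays were themselves 1.54 and 2.47 apart at these genes. Slow fibre and heart-type genes had a median of 0.78, with 7 of 11 higher but 2 above and 2 below WT without overlap. Mybpc1, the slow-type myosin-binding protein, read 9.84 and 8.5 and 10.76 and 12.59 (difference 2.5), while Atp2a2, the calcium pump of slow muscle and heart, differed by −0.24. Their array medians were −0.19 and 1.40, so SA replicate 1 lay below the WT mean.

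Muscle genes for energy supply matched the fast fibres, with 15 of 15 higher, 13 without overlap and a median of 2.67. Ampd1, which deaminates AMP in working muscle, read 8.77 and 9.82 and 12.12 and 14.18 (difference 3.85, SE 0.92), and Ckm, the muscle creatine kinase, read 10.27 and 10.44 and 13.26 and 14.82 (difference 3.69, SE 1.3). The glycolytic enzyme gene Eno3 was higher by 3.39 and Pgam2 by 3.08. Genes of excitation and calcium release had a median of 1.10 over 13 (0.50 without SA replicate 2, 1.69 without replicate 1 and 0.68 without the filter), led by the calcium release channel gene Ryr1 at 9.24 and 9.17 and 11.71 and 13.16 (3.23). For all 3 of these programmes SA replicate 2 exceeded replicate 1. The summed fast fibre intensity was 102676 and 99196 in WT and 350750 and 498834 in SA. Muscle-forming factors gave a median of 0.29 over 9 genes, in which Myf6, a muscle transcription factor, was higher by 2.24 and the filament gene Des by 2.22, while the receptor gene Megf10 differed by −1.27. Among the other SA arrays the fast fibre medians were 2.90 and 1.81 at day 20 and 1.42 and −1.60 at day 60. Smooth muscle and pericyte genes had a median of −0.05 over 16 genes, although Myh11, the smooth muscle myosin, was higher by 1.38.

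Mitochondrial fuel pathways were higher by small amounts in many genes. Of 17 measured genes of pyruvate entry and the citric acid cycle, 16 were higher and 14 lay above WT without overlap (24.1% of all genes did), with a median of 0.34 (0.15 without SA replicate 2) and none called or 2-fold. Fumarase gene Fh1 read 11.79 and 11.85 in WT and 12.18 and 12.68 in SA (0.61), and citrate synthase gene Cs read 12.58 and 12.42 and 12.85 and 13.34 (0.6). Breakdown of branched-chain amino acids gave a median of 0.32 (0.20 without SA replicate 2), with 13 of 14 higher and 10 without overlap. Bcat2, which removes the amino group in mitochondria, read 10.66 and 10.66 and 11.53 and 11.78 (0.99, SE 0.23). Fatty acid oxidation had a median of 0.28 (0.13 without SA replicate 2 and 0.11 without WT replicate 2) with 15 of 18 higher, led by Pdk4, which blocks pyruvate entry, at 11.12 and 11.23 and 13.86 and 13.37 (2.44, SE 0.46) and by the muscle carnitine transferase gene Cpt1b (2.01). Hypoxia and glycolysis genes had a median of 0.14 with 11 of 17 higher, and the 2 with the largest difference were Aldoa at 13.47 and 13.42 and 14.84 and 15.41 (1.68) and Hk2 at 12.43 and 12.71 and 13.52 and 14.25 (1.31), both enzymes abundant in muscle. These pathways are active in fat and muscle cells, whose own markers moved with them, and the part of those cells in these differences was not tested.

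Detoxification and antioxidant enzymes had a median of 0.39, with 16 of 22 higher and 6 at least 2-fold. Without overlap, 14 lay above and 3 below WT, and 1 of those below was at least 2-fold lower. The carboxylesterase gene Ces1d, also known from fat, read 10.31 and 10.98 in WT and 14.34 and 14.18 in SA (3.62, SE 0.79). The cytochrome P450 gene Cyp2f2 read 9.9 and 10.24 and 12.74 and 12.87 (2.73), and Cyp2e1 read 10.43 and 10.89 and 13.73 and 12.06 (2.23). Gpx3, a secreted peroxidase, read 11.72 and 11.77 and 13.64 and 14.59 (2.37). Steroid and retinoid genes as a list were near the background at 0.03 over 14 genes, but Akr1c18, which inactivates progesterone, differed by 1.66 and Hsd11b1, which regenerates active glucocorticoid, by 1.56 (from 12.15 and 11.78 to 13.52 and 13.54).

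Genes known to be induced by type I interferon were mostly higher in SA, with a median below those of the fast muscle and fat hormone lists. Of 39 listed, 29 were measured, 27 were higher, 25 lay above both WT arrays and 2 below, and 10 were at least 2-fold higher, with a median of 0.81 and 0 called. Of the 29, 9 had an unadjusted p under 0.05 in the higher direction (6.23% of all genes). Oas2, which makes the messenger that activates RNase L, read 8.98 and 7.94 in WT and 10.59 and 11.11 in SA (2.38, SE 0.69, adjusted p = 0.257). Irf7, the factor that amplifies interferon production, read 8.83 and 8.34 and 10.35 and 11.11 (2.15, SE 0.79), and Usp18, the protease that dampens the receptor, averaged 9.97 ± 0.24 (SD, n = 2) in WT and 11.88 ± 0.16 in SA (1.91, SE 0.72). At each of these 3 the groups did not overlap. The 2 members with both SA arrays below WT were Ifit2 (−0.36), of the same antiviral family as Ifit3, and the ubiquitin ligase gene Trim25 (−0.39). Probes for 7 listed genes (Ifit1, Oas1a, Oas1b, Oas3, Xaf1, Ifih1 and Parp9) lay below the filter. Array medians of the list were 0.68 and 0.98 in SA at day 38, 1.65 and 0.38 at day 20 and −0.33 and 0.49 at day 60. The receptor genes did not follow: Ifnar2 read 9.23 and 9.49 in WT and 9.02 and 8.75 in SA (−0.47), Ifnar1 lay below the filter at 5.44 and 4.50 against 4.72 and 5.61, and the interferon gene Ifnb1 was below it as well. The 13 measured genes of the receptor and signalling chain had a median of −0.05.

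Factors that carry the interferon signal bind promoters at pairs of GAAA separated by a pair of bases. The pattern GAAANNGAAA, searched on both strands with overlapping matches allowed, stood in 1131 of 32851 RefSeq promoter windows of build GRCm38.p6 (3.44%), each running from 250 bases before to 50 after a gene's start. Among promoters of all genes tested the share was 3.10% (345 of 11133), and among those of the tested interferon-stimulated genes it was 32% (8 of 25, for 20 of the 29 genes). Of these 8, 5 are shown, because this pattern is the known response element of the class, with the first match and 30 bases on each side where the window allowed it. They are those in which this stretch, flanks included, ends before the gene start. Isg15 had 3 matches in its window and Bst2 and Ifit3 had 2 each, of which the first alone is marked. The match is in capitals, as GAAANNGAAA on the strand of the gene or as its reverse complement where it lies on the opposite strand, and each sequence is given 5′ to 3′ on the gene's strand.
Isg15, chr4:156200857-156200926, minus strand, match beginning 78 bases before the gene start: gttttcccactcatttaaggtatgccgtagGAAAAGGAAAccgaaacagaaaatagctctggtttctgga
Bst2, chr8:71537563-71537632, minus strand, match beginning 130 bases before the gene start: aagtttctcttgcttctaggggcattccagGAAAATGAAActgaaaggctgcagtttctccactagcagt
Stat2, chr10:128270248-128270315, plus strand, match beginning 222 bases before the gene start: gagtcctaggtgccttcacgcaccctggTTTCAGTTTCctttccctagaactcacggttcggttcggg
Rsad2, chr12:26456533-26456602, minus strand, match beginning 120 bases before the gene start: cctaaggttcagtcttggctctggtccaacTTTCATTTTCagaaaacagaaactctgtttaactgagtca
Ifit3, chr19:34583343-34583412, plus strand, match beginning 156 bases before the gene start: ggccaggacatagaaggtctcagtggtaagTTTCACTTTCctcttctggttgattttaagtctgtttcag
A match is a description of the letters and not a measured site. Of these genes Rsad2, an antiviral enzyme, read 9.36 and 9.2 in WT and 11.01 and 11.53 in SA (1.99, SE 0.74). Isg15, a ubiquitin-like modifier, read 9.58 and 9.16 in WT and 10.39 and 10.82 in SA (1.24). The transcription factor gene Stat2 read 8.85 and 8.72 in WT and 9.53 and 9.77 in SA (0.86), Ifit3 read 13.20 and 12.98 against 13.72 and 14.08 (0.81), and the virus-tethering gene Bst2 read 9.57 and 9.69 against 9.64 and 10.28 (0.33), where the groups overlapped. The 5 differences ran from 0.33 to 1.99.

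Genes that respond to interferon gamma or serve class I presentation were higher by a median of 0.54. Of 24 measured, 23 were higher, 18 without overlap (24.1% of all genes) and 4 at least 2-fold (3.85% of all genes). Cxcl9, which attracts T cells, read 9.68 and 9.75 in WT and 11.76 and 10.76 in SA (1.54), Nlrc5, the activator of class I genes, read 9.77 and 10.06 and 11.2 and 10.79 (1.08), and H2-Q8, a class I gene, read 9.75 and 10.2 and 11.41 and 10.74 (1.1). Here SA replicate 1 was the higher of the pair at each gene, opposite to the muscle lists. Gbp2, a guanylate-binding protein gene, differed by 1.01, with WT arrays 12.33 and 13.01. The constitutive proteasome, whose subunits are not interferon-induced, had a median of −0.01 over 19 genes.

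Among immune cell markers, dendritic and Langerhans cell genes with class II genes were higher and neutrophil genes lower. Of 12 measured dendritic and class II genes, 11 were higher and 8 of these did not overlap with WT (median 0.93), the exception being the dendritic cell factor gene Zbtb46 (−0.44), while 5 listed genes (Flt3, Xcr1, Clec9a, Itgax and Ccl22) lay below the filter. Cd207, the langerin of Langerhans cells, read 9.03 and 9.02 in WT and 11.21 and 10.34 in SA (1.75, SE 0.41), the class II chain gene H2-Ab1 read 13.9 and 14.33 and 15.61 and 14.93 (1.16), and its invariant chain gene Cd74 read 13.92 and 14.1 and 15.34 and 14.88 (1.1). Of 13 measured neutrophil genes 12 were lower, 8 of them without overlap (30% of all genes lay below WT), with a median of −0.63 that was −0.34 without SA replicate 2 and −1.03 without replicate 1. The calprotectin genes S100a8 at 16.02 and 15.48 and 14.71 and 13.83 (−1.48) and S100a9 at 14.99 and 14.79 and 14.1 and 12.95 (−1.37) stood below WT in both SA arrays, and Retnlg read 11.38 and 12.9 and 11.07 and 7.9 (−2.66). The exception was Il1r2, the decoy receptor for interleukin 1, at 9.03 and 9.46 and 10.69 and 11.06 (1.63).

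Most measured markers of T cells and cytotoxic lymphocytes were modestly higher, and macrophage markers were level. T cell genes had a median of 0.22 with 11 of 15 higher. Without overlap, 8 lay above and 2 below WT (24.1% and 30% of all genes). The list was led by the receptor chain gene Cd3g at 8.7 and 8.65 in WT and 10.35 and 9.58 in SA (1.29) and by Trat1 (1.23) and Cd8b1 (1.06). Trat1 lay below the filter level of 7.24 in both WT arrays and entered through SA arrays. Probes for Cd4 and Cd8a lay below the filter. Natural killer and cytotoxic genes had a median of 0.39 over 8 (0.02 without the filter), of which 4 overlapped between the groups. A further 8 (Gzma, Gzmb, Gzmc, Klrk1, Ncr1, Ifng, Eomes and Tbx21) lay below the filter. Macrophage and monocyte genes had a median of 0.03 over 17, of which 11 overlapped between the groups, although Trem2, a lipid-sensing receptor of macrophages, read 11.56 and 11.32 and 10.49 and 10.5 (−0.94, SE 0.19). Type 2 genes split, with Retnla, a secreted product of alternatively activated macrophages and of fat, at 12.5 and 12.9 and 14.38 and 15.22 (2.1) and Chil3 and Arg1, known from the same macrophages, at −1.26 and −0.75. Mast cell genes had a median of 0.40 over 8, of which 5 overlapped between the groups, with SA array medians of 0.72 and −0.06. Among them the protease genes Mcpt4 and Cma1 were higher by 1.07 and 0.76, and the tryptase gene Tpsab1 differed by −1.27. B and plasma cell genes rested on 5 measured members and their SA arrays lay on either side of WT. Red blood cell genes had a median of 1.91 (1.08 without SA replicate 1) with 6 of 6 higher, and Hbb-b2, a globin gene, read 6.6 and 6.85 and 9.63 and 8.86 (2.52). Their summed intensity was 9443 and 18339 in WT and 56400 and 43095 in SA.

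Pigment cell genes, which mark the lineage in which the tumours arise, were present in all 4 tumours and higher in SA. Of 17 measured, 13 were higher, 11 without overlap (24.1% of all genes) and 7 at least 2-fold (3.85% of all genes). The median was 0.86 (0.38 without SA replicate 2). Dct, which makes a melanin precursor, read 12.77 and 12.6 in WT and 14.63 and 14.85 in SA (2.05, SE 1.47), and Tyrp1, another melanin enzyme, read 10.26 and 9.97 and 12.06 and 12.7 (2.27, SE 1.26). Pmel, the fibril protein of melanosomes, read 9.95 and 9.92 and 11.48 and 12.6 (2.11) and Mlana, a melanosome protein, 10.66 and 10.43 and 12.02 and 12.74 (1.84). The WT arrays lay within 0.3 of each other at these 4 genes, and the wide standard errors come from the spread pooled over all 4 groups. The list's array medians were 0.38 and 0.89 at day 38, −0.19 and 1.78 at day 20 and 2.55 and 2.94 at day 60.

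Genes of Schwann cells and myelin were lower in SA, with 9 of 12 lower, 7 without overlap, 5 at least 2-fold (2.39% of all genes) and a median of −0.76 (−0.50 without SA replicate 2). The lipid hydroxylase gene Fa2h, also known from sebaceous glands, was higher by 1.17. Cdh19, a cadherin of Schwann cell precursors, read 12.93 and 13.21 in WT and 11.97 and 9.6 in SA (−2.28), the adhesion gene Ncam1 read 12.55 and 12.07 and 10.97 and 9.26 (−2.19, SE 0.6), and Cnp, a myelin enzyme, read 13.01 and 12.67 and 11.91 and 10.46 (−1.66). In each the lowest of the 4 arrays was SA replicate 2. All 6 SA arrays had negative medians for the list, from −0.50 to −1.52. Its summed intensity was less uniform, at 75314 and 76171 in WT and 68285 and 36145 in SA at day 38. In SA it was 49449 and 90791 at day 20 and 41535 and 74878 at day 60. Neural crest and undifferentiated melanoma genes had a median of −0.23 over 9, with array medians of 0.10 and −0.58. Of these, the transcription factor genes Zeb1 and Zeb2 differed by −0.96 and −0.62 and the filament gene Nes by −0.9.

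**Figure D4:**
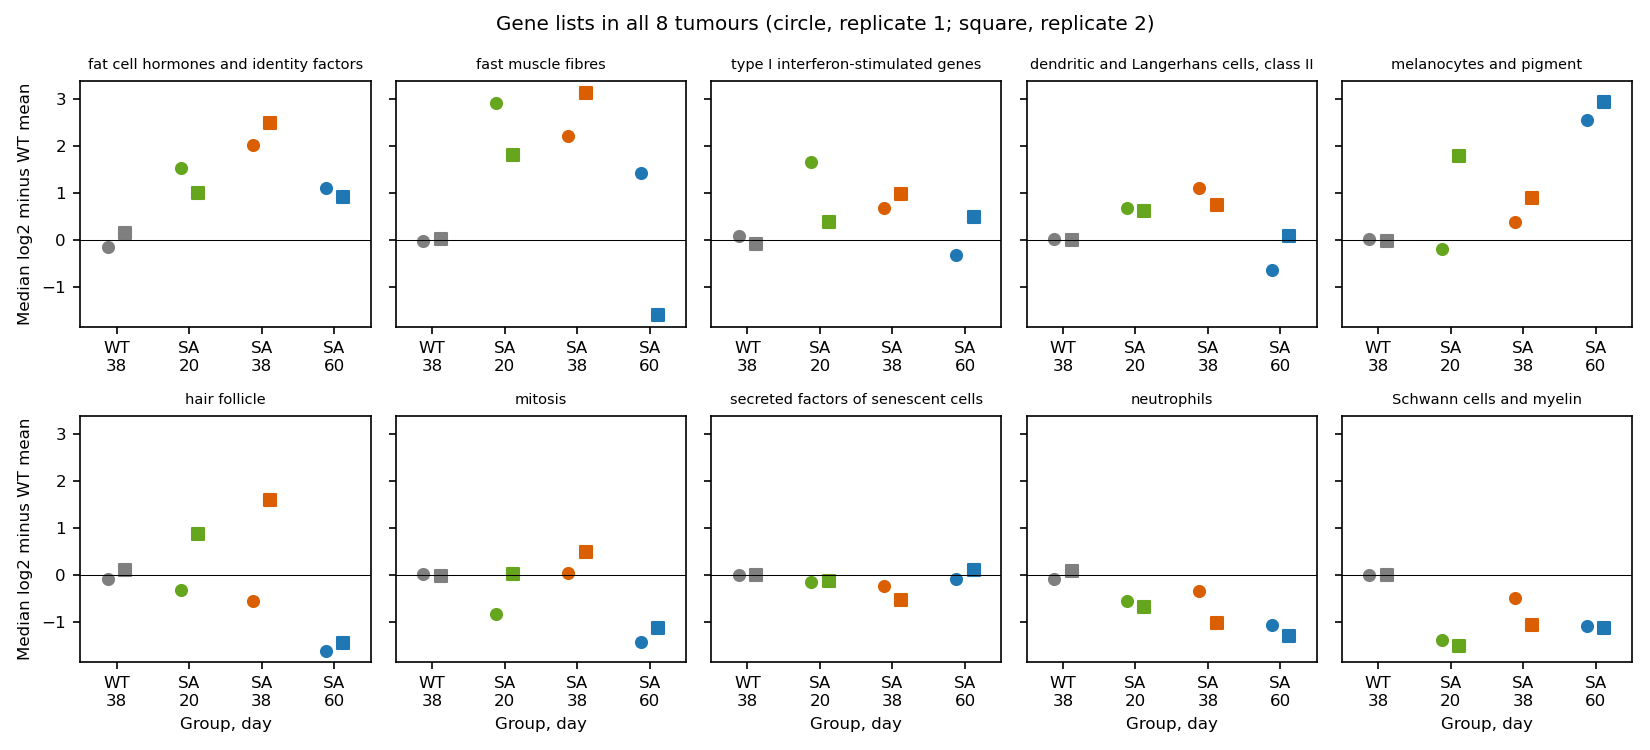
Median over measured genes of the log2 level minus the WT mean (y axis) for 10 lists, with 1 point per array, WT at the left and SA by day at the right. Fat medians are above 0 in all 6 SA arrays (0.92 to 2.48), Schwann cell medians below 0 in all 6, and pigment medians reach 2.55 and 2.94 at day 60.

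Secreted factors of senescent cells were mostly lower in SA. Of 26 measured, 19 were lower, 15 without overlap (30% of all genes) and 7 at least 2-fold (2.39% of all genes). Another 3 lay above WT without overlap (24.1% of all genes). The median was −0.38 (−0.23 without SA replicate 2 and −0.25 without the filter). Probes for 5 listed genes (Il6, Cxcl5, Ereg, Csf2 and Ptgs2) lay below the filter. limma called 0, and 8 had an unadjusted p under 0.05 in that direction (7.87% of all genes). The stromelysin gene Mmp3 read 13.72 and 12.74 in WT and 11.61 and 10.73 in SA (−2.06), Mmp10 read 9.74 and 9.73 and 7.91 and 8.35 (−1.61), and Cxcl2, an attractant of neutrophils, read 9.31 and 9.82 and 7.31 and 7.32 (−2.25, SE 0.53). Neutrophil markers moved the same way in the same arrays, and their part in the difference was not tested. The arrest genes themselves had a median of −0.09 over 21, with 5 above and 6 below WT without overlap. Those shares are near the ones over all genes (24.1% and 30%). The 2 at least 2-fold lower were Cdkn2a, which encodes p16 and p19Arf, at 8.95 and 9.45 and 8.1 and 7.18 (−1.56), and its neighbour Cdkn2b, which encodes p15, at 12.13 and 12.44 and 11.38 and 10.75 (−1.22). A second probe of Cdkn2a past the filter differed by −0.4, with means of 7.44 in WT and 7.04 in SA. ERK output genes, read downstream of Braf, had a median of −0.15 over 15, of which 9 overlapped.

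Cell division genes were higher in SA replicate 2. DNA replication genes had a median of 0.33, with 16 of 17 higher and 9 without overlap, and array medians of 0.05 in replicate 1 and 0.58 in replicate 2. Mcm10, which helps start replication, read 9.85 and 10.01 in WT and 10.56 and 11.38 in SA (1.04), and the helicase gene Mcm2 read 10.21 and 10.14 and 10.39 and 11.13 (0.59). Mitosis genes had a median of 0.24 with 12 of 13 higher and array medians of 0.04 and 0.48, led by Top2a at 11.15 and 11.15 and 11.32 and 12.17 (0.6). Hair follicle genes, which mark growing hair, were high in the same array, and their part in this was not tested. The hair list's medians were −0.55 in replicate 1 and 1.59 in replicate 2, and 13 of its 14 measured genes overlapped between the groups. Its summed intensity was 96672 and 111147 in WT and 70624 and 290307 in SA.

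Among epidermal genes, basal keratinocyte and differentiated epidermis lists had medians of 0.09 and 0.03, with members on both sides. Krt15, a keratin of basal cells and follicle stem cells, read 12.37 and 12.46 in WT and 13.59 and 13.44 in SA (1.1), the cornified envelope genes Lce1m and Sprr1b differed by 1.65 and −1.68, and Krt1, the keratin of suprabasal cells, by −1.0. Fibroblast and matrix genes had a median of −0.19, in which the collagen gene Col1a2 read 12.19 and 12.25 and 10.84 and 10.15 (−1.73), while Pi16 and Dpt, genes of fibroblasts in connective tissue, were higher by 2.21 and 1.31. Blood vessel genes had a median of 0.27, with the coreceptor gene Eng at −0.83 and the receptor genes Tek and Flt1 higher by 0.77 and 0.74. The lymphatic chemokine gene Ccl21a was higher by 1.84 (SE 0.42), in a list whose median was −0.35.

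Single regulators stood apart from the medians of their lists. In the BMP and TGF-beta list, with a median of −0.08 over 16, Smoc1 rose as described and the growth factor gene Gdf10 read 14.42 and 13.54 in WT and 11.96 and 10.92 in SA (−2.54, SE 0.47). In the list of the IGF axis and imprinted genes (median 0.11 over 14), Mest read 11.35 and 10.72 and 10.19 and 9.1 (−1.39) beside Dlk1, and the growth hormone receptor gene Ghr read 12.29 and 12.07 and 13.22 and 13.74 (1.3). Of 5 measured peptide hormone genes, Pyy rose and Gcg, the glucagon gene, read 9.6 and 11.58 and 8.59 and 6.97 (−2.81, SE 0.86), with WT arrays 1.98 apart. The Wnt inhibitor gene Notum differed by 1.31 and the stem cell receptor gene Lgr5 by 1.13, mainly through SA replicate 2. Notum lay below the filter level of 7.24 in both WT arrays and entered through SA arrays. In the circadian list, 2 of 12 lay above and 6 below WT without overlap (24.1% and 30% of all genes). The output factor gene Dbp read 13.33 and 13.06 and 11.42 and 11.3 (−1.84), the repressor genes Nr1d1 and Nr1d2 differed by −1.54 and −1.1, and Nfil3, which opposes Dbp at shared sites, read 11.16 and 11.45 and 12.26 and 12.72 (1.18). The time of day at which tumours were taken is not in the labels. Immediate early genes had a median of 0.23, with Klf2 and Atf3 higher by 1.36 and 1.18.

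Where the WT arrays lay within 1 of each other, the widest gaps between the 2 SA tumours were partly hair genes. Shh, the signal of the hair germ and matrix, read 8.15 and 11.72 in SA replicates 1 and 2, the hair keratin gene Krt35 9.01 and 12.58, the cuticle gene S100a3 11.82 and 14.96, the keratin-associated gene Krtap5-2 10.05 and 12.96 and the phosphatase gene Ptprv 8.31 and 11.21, against at most 12.79 in WT for S100a3 and 10.48 for the others. Casp4, an inflammatory caspase, read 5.92 in replicate 1 and 10.16 in replicate 2 against 10.52 and 10.88 in WT. At a further 2 probes of Casp4 replicate 1 read 8.72 and 7.40, against 9.33 and 9.24 and against 8.09 and 7.47 in WT, with no drop of that size. The reverse gap was led by Csrp1, a LIM domain protein of smooth muscle, at 13.27 and 7.25, Cops8, a subunit of the COP9 signalosome, at 11.95 and 7.42, and Mff, a mitochondrial fission factor, at 10.44 and 7.51. A second probe of Mff read 9.26 and 10.01. Slc4a1 (11.96 and 9.03), the anion exchanger of red cells, Prg2 (9.46 and 6.65), a granule protein of eosinophils, and Uap1 (12.06 and 9.42), an enzyme of aminosugar synthesis, completed the set.

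A rule for single low readings, at least 1.5 below all 7 other arrays whose own range was at most 2, found 3 genes in SA replicate 2, Cops8, Mff and Thap4, and 1 in SA replicate 1, Casp4. Such readings were not particular to these arrays. The rule found 4 genes in WT replicate 1, 0 in WT replicate 2 and 2 to 15 in each SA array of days 20 and 60. Thap4 read 10.85 and 10.69 in WT and 11.18 and 8.91 in SA. All 3 in SA replicate 2 of day 38 lie on chromosome 1, as do Csrp1 and Uap1, which did not meet the rule. Csrp1 was also low in 1 SA array of day 60 (8.30). Uap1 read 9.11 in 1 SA array of day 20 and 9.59 and 8.80 at day 60, near its 9.42 in SA replicate 2 of day 38. For Cops8, Mff, Thap4 and Casp4 the low SA mean of day 38 rests on 1 array each.

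By chromosome, the share of genes with both SA arrays below both WT arrays was even except at 2. On chromosome 18 it was 41.3% of 264 genes, with 14.8% above and a median difference of −0.11, and on the X chromosome 41% of 344 genes, with 18% above and a median of −0.12. On the other autosomes 24.2% to 33.6% lay below and 20.8% to 27.8% above, with medians from −0.04 to 0.01. Array medians for chromosome 18 were −0.11 and −0.16 in SA at day 38, −0.19 and −0.11 at day 20 and −0.12 and −0.10 at day 60. The X chromosome gave −0.10 and −0.14 at day 38 and −0.12 to −0.14 on the other days, so both shifts were also seen in the SA arrays of the other days. All 6 share the same 2 WT arrays as reference.

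**Figure D5:**
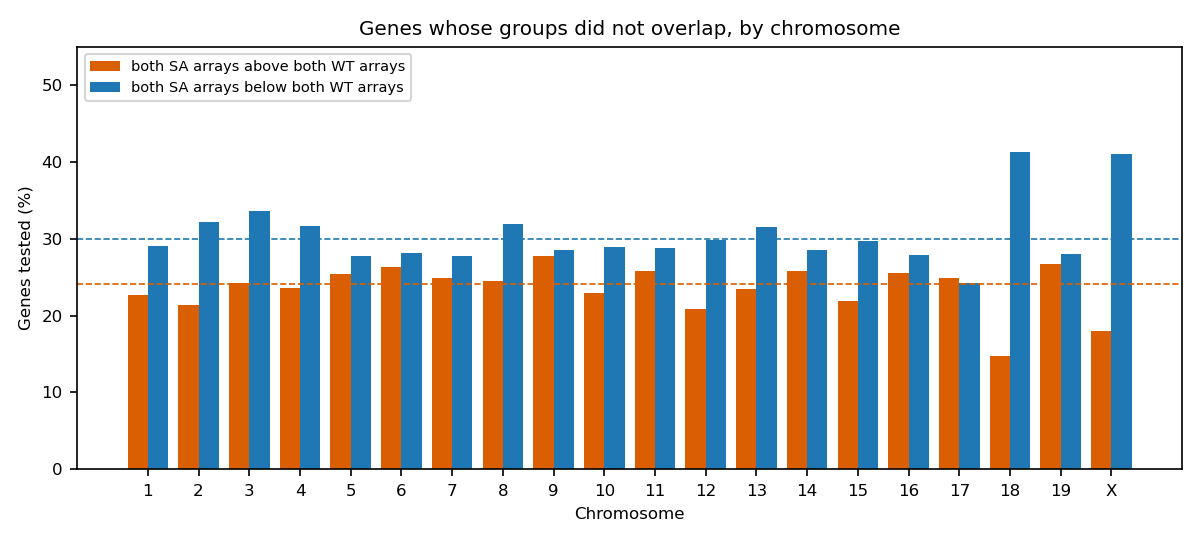
Percent of the genes tested on each chromosome (x axis) for which both SA arrays of day 38 lay above (orange) or below (blue) both WT arrays, with the shares over all genes as dashed lines (24.1% and 30%). Chromosomes 18 and X stand out with 41.3% and 41% below.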

How the data were processed

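RNA of whole melanomas was measured on Illumina mouse bead arrays with 1 biotin-labelled sample each. The deposited intensities are linear, from 183.9 to 71767, with array medians between 409.3 and 410, and their sorted values match between arrays, which is how quantile normalization by the authors and the absence of background subtraction were inferred. The submitters' processing notes name GenomeStudio 1.8. A second deposited table of unnormalized signals was not used, since its 16 columns carry no name that the labels tie to a sample. Precision is limited by the number of arrays.

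Intensities were corrected with normexp (saddle-point, offset 16) and put on the log2 scale. Probes above the 40th percentile of mean log2 value (7.24) were kept, and the brightest stood for each gene. Gene names came from the platform annotation: 23978 probes had 1 symbol, 0 several and 1719 none, and 0 symbols changed against the RefSeq table of assembly GRCm38.p6, which also placed genes on chromosomes. R 4.3.3 with limma 3.58.1 (functions lmFit and eBayes, two-sided) fitted a mean for each of the 4 groups over 8 arrays (4 residual and 2.49 prior degrees of freedom), and p-values were adjusted by Benjamini-Hochberg over all 11661 measurements. The procedure was tested on simulated data. Lists were described by counts and medians, with no test.

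The comparison, its members and the gene lists were chosen with earlier results of these data known. Genes were named by rule: all called; the 12 higher and the 12 lower genes with the smallest p among uncalled, symbol-bearing genes off the X and Y chromosomes with non-overlapping groups and at least 2-fold; up to 4 members of each list with the largest difference among those without overlap, or where fewer than 2 qualified the 2 with the smallest p; the sex-linked lists; the 6 widest gaps between SA arrays in each direction where WT arrays lay within 1; and the receptor genes. Tried as alternatives were no background correction or an offset of 50, no filter or the 60th percentile, probe means, a fit on the 4 day 38 arrays, a replicate block, a variance trend, array weights, no X and Y genes, and leaving out each array. Past the filter, 51 of the 262 named genes had a total of 73 further probes. Of these, 69 differed in the same direction and 4 in the opposite one (Blnk, Dst, Mff and Mmp13). Probes below the filter were not counted. Among them, some of Pparg, Lpin1, Gbp2, Cdk1, Actc1, Plin5, Kdm5c, Dst and Mff went the opposite way, and others went the same way. Braf and Ddx3y probes were not used here, and 1 item of the mouse model is not reported here.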

Additional observations from a re-analysis of the deposited data

How the results depend on the processing

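The 7 calls (4 higher, 3 lower) became 4 (2 higher) without background correction, 36 (30 higher, 6 lower) on the 4 arrays of day 38 alone, 13 (8 and 5) with array weights, 2 (1 and 1) without X and Y genes and 1 (0 higher, 1 lower) with the replicate number as a block. Leaving out single arrays gave 1 to 42 calls, 0 to 34 of them higher and 1 to 8 lower. Whether the replicate numbers pair the samples was not settled. The deviations of same-numbered WT and SA arrays of day 38 correlated at −0.186 and those of other groups between −0.196 and 0.107. With 2 arrays in a group the deviations mirror each other, so these correlations cannot exclude a pairing.

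The medians of the lists of main interest moved beyond the spread between replicates in 13 of 342 recomputations and turned sign in none. Many of these could not move a median. Fits on day 38 alone, with a block, trend or weights, or without a day 20 or day 60 array keep the same differences. The limit was the larger SD between the array medians of WT or SA, which leaving out 1 array seldom exceeds. The count is thus no measure of stability. Without background correction the medians were 1.81 for fat hormones and identity factors, 0.76 for lipid droplets, 0.62 for fatty acid and triglyceride synthesis, 0.46 for pigment and 0.57 for type I interferon-stimulated genes. With the filter at the 60th percentile they were 2.93 for fat hormones, 0.98 for fat synthesis, 1.30 for pigment and 0.74 for interferon gamma and class I genes. With no filter the detoxification median was 0.22. Without single arrays the ranges were 0.90 to 1.16 for lipid droplets, 0.75 to 0.90 for fat synthesis, 0.38 to 0.94 for pigment, 1.84 to 3.23 for muscle energy, 0.50 to 1.69 for muscle excitation, −1.03 to −0.34 for neutrophils, −1.07 to −0.50 for Schwann cells, 1.08 to 2.13 for red blood cells, 0.15 to 0.49 for the citric acid cycle, 0.11 to 0.35 for fatty acid oxidation, 0.05 to 0.58 for DNA replication, 0.04 to 0.48 for mitosis, 0.19 to 0.36 for T cells and 0.20 to 0.50 for natural killer genes. Leaving out 1 array of day 38 moved the medians of 46 of the 60 lists by over 1.5 times or across 0. Without background correction the muscle excitation and neutrophil medians were 0.60 and −0.33, and without the filter muscle excitation was 0.68, brown fat 0.30 and natural killer genes 0.02. There were 26 changes of sign in 18 other lists. The hair follicle median was −0.55 without SA replicate 2, the slow fibre median −0.19 without SA replicate 2 and also without WT replicate 2, the muscle-forming and mast cell medians −0.02 and −0.06 without SA replicate 1, the B cell median −0.66 without SA replicate 1 and −0.38 without WT replicate 1, the type 2 and neural crest medians 0.15 and 0.10 without SA replicate 2, and the lymphatic and cartilage medians 0.02 and 0.13 without the filter. The other changed medians lay between −0.12 and 0.19.

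Among single genes, 10 turned sign when 1 array was left out. Their differences without SA replicate 2 and without replicate 1 were −0.03 and 1.46 for Lef1, −0.77 and 2.79 for Krt35, −0.83 and 2.31 for S100a3, 0.32 and −5.70 for Csrp1, 0.86 and −3.67 for Cops8, 0.59 and −2.33 for Mff, 0.25 and −2.56 for Prg2, 0.46 and −2.18 for Uap1, 2.21 and −0.15 for Mzb1 and −1.96 and 0.94 for Ptprv. The causes were not tested. With 2 arrays in a group, the lone array of such a fit was assumed to vary like the other groups, and dim probes understate differences because of the added offset.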
